A study of Mus musculus with 6 samples.

Results

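Genes of the kinetochore, the centromere and the spindle checkpoint were followed in Normal cells treated with forskolin (FSK). The gene set was a list of 45 names of shared function, chosen with earlier results of these data known. Of these, 40 had a probe set paired with only 1 gene, out of 16797 genes measured in all. Of the other 5, Hjurp was covered only by a probe set shared with several genes, and Cenpi, Nuf2, Zwint and Ska1 were not analysed here. FSK switches on adenylate cyclase, which raises cAMP and activates protein kinase A (PKA).

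The data were 6 arrays of total RNA from NIH3T3, an immortalized mouse embryonic fibroblast line that the study uses as its model of untransformed cells. The NF group (3 arrays) was plated for 16 h in 25 mM glucose, moved to 1 mM glucose, given 10 µM FSK at 24 h and 48 h, and collected at 72 h. The N group (3 arrays) was plated, grown in 1 mM glucose and collected in the same way without FSK. The comparison asks which transcripts differ when the PKA pathway is switched on in cells short of glucose, with a single cultured line standing for normal cells.

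The kinetochore is the protein assembly that ties each chromosome to the spindle during mitosis. It is built on centromeric nucleosomes that carry the histone variant CENP-A, through an inner layer (the constitutive centromere-associated network, CCAN) and an outer layer that grips microtubules. While a kinetochore is unattached, the spindle checkpoint holds the cell before anaphase, and the chromosomal passenger complex corrects faulty attachments. Many of these genes are transcribed mainly in late S, G2 and M phase, so that in fibroblast cultures their mRNA levels are widely used as a sign of how many cells are cycling.

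Promoter stretches of 5 members are shown because CHR, the cell cycle genes homology region that shuts such genes off in resting cells, and the CCAAT box bound by NF-Y are textbook features of promoters of this class. Bub1, Cenpa, Kntc1 and Cenpe were among the genes that rose with FSK, and Zw10 is given as a member with nearly equal levels in NF and N. The stretches run from 120 bases before to 30 bases after the RefSeq start, 5′ to 3′ on the gene's strand, in GRCm38.p6. They lie at chr2:127831830-127831979 (minus strand), chr5:30666766-30666915 (plus strand), chr5:123749606-123749755 (plus strand), chr3:135212443-135212592 (plus strand) and chr9:49055461-49055610 (plus strand). Capitals mark matches, on either strand, to the motifs searched.
Bub1: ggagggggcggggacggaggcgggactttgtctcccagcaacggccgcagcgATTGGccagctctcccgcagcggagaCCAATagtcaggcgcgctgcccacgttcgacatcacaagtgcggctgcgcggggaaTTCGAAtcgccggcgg
Cenpa: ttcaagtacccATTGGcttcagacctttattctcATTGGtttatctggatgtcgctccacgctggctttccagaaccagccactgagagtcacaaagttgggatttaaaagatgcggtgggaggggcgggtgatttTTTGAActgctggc
Kntc1: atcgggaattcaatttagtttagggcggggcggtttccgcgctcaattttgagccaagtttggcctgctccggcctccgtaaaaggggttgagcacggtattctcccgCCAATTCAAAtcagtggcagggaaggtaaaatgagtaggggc
Cenpe: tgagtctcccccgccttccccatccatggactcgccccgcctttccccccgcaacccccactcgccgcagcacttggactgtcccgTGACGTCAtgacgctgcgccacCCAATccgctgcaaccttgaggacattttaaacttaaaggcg
Zw10: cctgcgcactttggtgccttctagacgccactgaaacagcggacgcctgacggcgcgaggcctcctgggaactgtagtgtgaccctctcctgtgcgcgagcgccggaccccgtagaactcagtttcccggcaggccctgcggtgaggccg

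In Bub1 the capitals mark NF-Y boxes at -68 and -42 and a CHR at 15, counted from the start. Cenpa had the same layout, with NF-Y boxes at -109 and -86 and a CHR at 17. In Kntc1 the capitals form an NF-Y box at -12 that overlaps a CHR at -8. The Cenpe stretch had a cAMP response element (CRE), the site of CREB factors, at -34 and an NF-Y box at -12. No match was found in the Zw10 stretch, whose window held a CHR only at -148.

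The label of the cells was set against marker genes. The 8 fibroblast markers measured had array medians of 9.76, 9.44 and 9.80 in NF and 8.85, 9.59 and 9.54 in N on the log2 scale. Of 20 measured markers of leukocytes, epithelium, endothelium, fat and muscle, 17 had a mean under 3.70, the median of all probe sets, which serves here as the bound for dim signals, and the exceptions were Krt14, Krt8 and Cd14. Of the 20, Cd14 alone passed the test, higher in NF by 1.05 (limma, adjusted p = 0.0439). The treatment label was set against only 1 gene, Pde4d, a cAMP phosphodiesterase that is on none of the gene lists. Pde4d read 5.58, 5.36 and 5.16 in NF and 4.03, 3.81 and 3.56 in N, a change of 1.57 (limma, adjusted p = 0.00843). Other cAMP response genes are not shown here. Changes are log2 values of NF minus N, their sign follows the sample labels, and the description of cell cycle genes in the study's text runs the other way. N replicate 1 stood apart from the other arrays. Its values had an SD of 2.42 against 2.58 to 2.62 in the other 5 arrays, and over the 5189 probe sets with a mean log2 value of 5 to 8 its median difference from the other N arrays was -0.49, so values without it are given where it moved a result by over 1.5 times or changed a call, and for several of the genes that rose.

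Most kinetochore, centromere and checkpoint genes had higher mean levels in NF than in N. Of the 40 members 13 rose at an adjusted p under 0.05 (limma with Benjamini-Hochberg adjustment over all probe sets) and 0 fell, against 1.83% and 0.72% of all genes. The 13 were Cenpa, Cenpm, Cenph, Bub1, Bub1b, Mad2l1, Kntc1, Zwilch, Ska3, Birc5, Aurkb, Cdca8 and Cenpe. The median change over the 40 members was 0.75, beside -0.03 over all genes. A change above 0 was found in 38 of 40 members, beside 7590 of the 16797 genes. In 29 members every NF array was above every N array and in 0 every NF array was below, where 10.5% and 9.7% of all genes did so. At an unadjusted p under 0.05 limma had 29 members higher and 0 lower, and the methods' t-test had 23 higher and 0 lower, none of which passed after adjustment. A difference of group means of 2-fold or more was found in 13 members, beside 1.93% of all genes.

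These counts depended on single arrays. Without N replicate 1, which was the lowest of the 6 arrays in 25 members, 17 members were called higher, beside 2.93% of all genes, the median change was 0.59, and 33 of 40 changes were above 0. All 13 were among the 17, which added Cenpn, Incenp, Mad1l1 and Ttk. Without NF replicate 1 or without NF replicate 3 the limma count was 0 members, and the calls over all genes were 1 and 2. At an unadjusted p under 0.05 limma then had 21 and 23 members higher, beside 950 and 941 of the 16797 genes. Without N replicate 3 there were 8 member calls, beside 139 over all genes, and Cenpm, Cenph, Aurkb, Cdca8 and Cenpe were not among the 8. Aurkb and Cdca8 were also not called without NF replicate 2 (11 member calls, beside 241 over all genes). Cenph and Cdca8 were not called without N replicate 2 (12 member calls with Oip5 added, beside 349 over all genes). In each of these 6 fits all 13 genes kept a change above 0. That outcome was fixed beforehand, because every NF array lay above every N array in all 13.

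**Figure D1:**
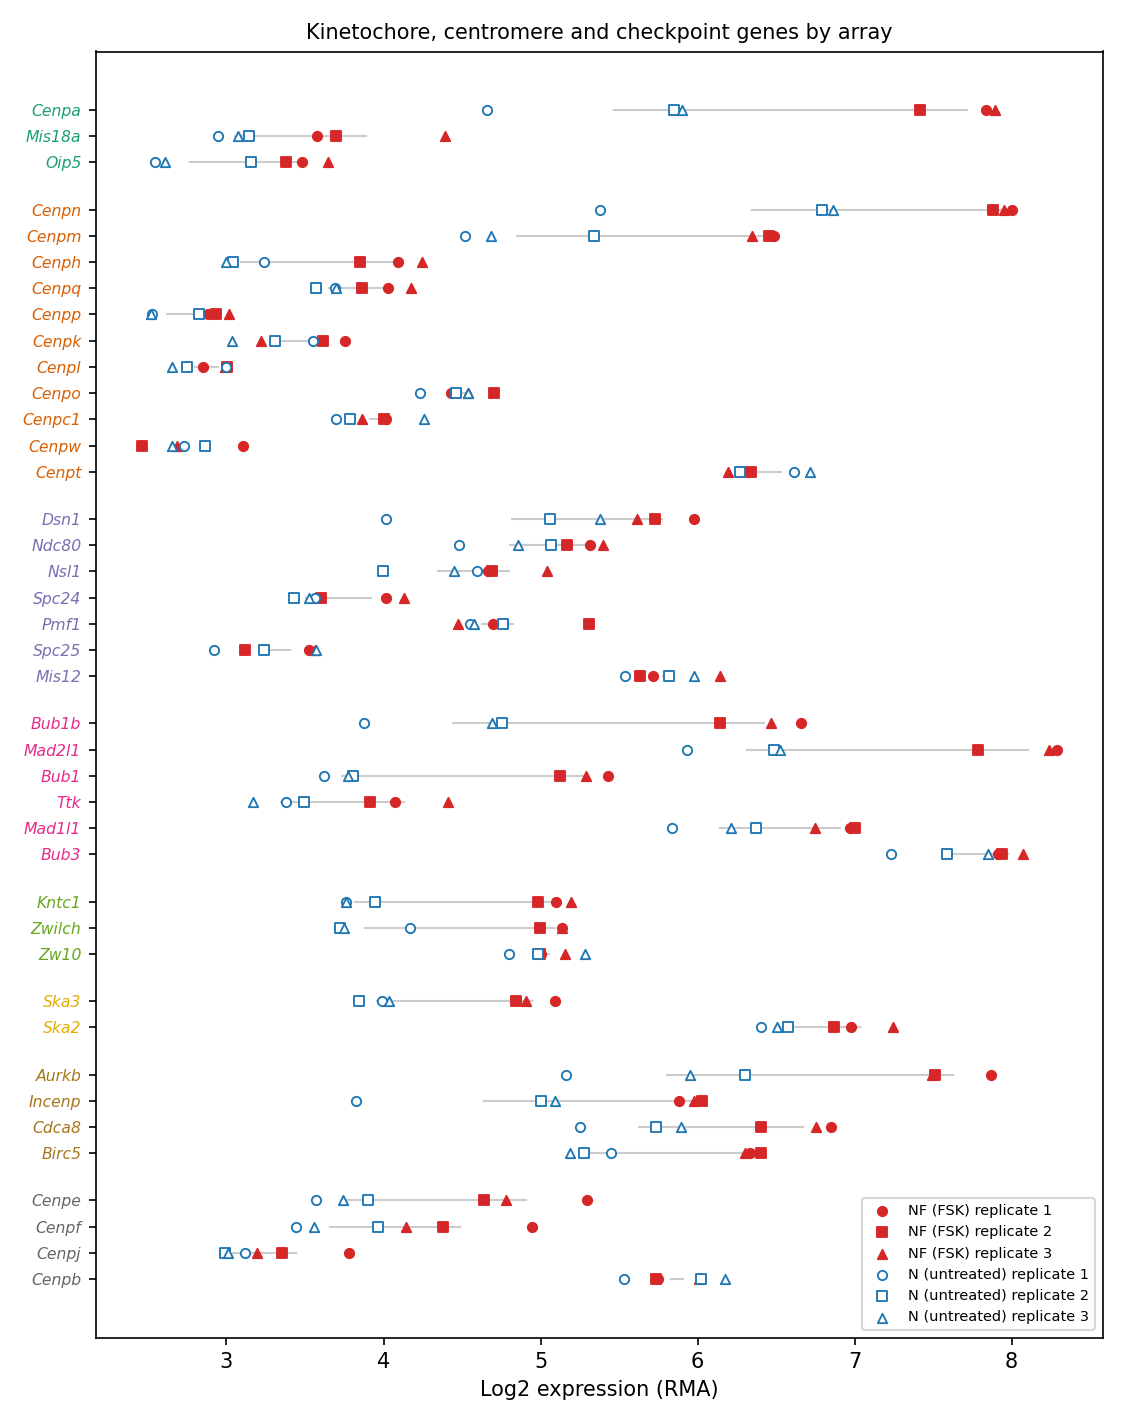
Log2 expression (x axis) of the 40 measured genes (y axis, grouped by role) in each array, with filled red symbols for NF, open blue symbols for N, and a grey line joining the group means. In 29 genes the 3 red symbols lie to the right of all blue ones, as in 10.5% of all genes. The open circle of N replicate 1 is the lowest symbol in 25 genes.

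Of the genes that build the centromeric nucleosome, Cenpa changed more than any other member. Cenpa, which encodes the histone variant itself, read 7.84, 7.42 and 7.89 in NF and 4.66, 5.85 and 5.90 in N. All NF arrays were above all N arrays, and the group means were 7.71 ± 0.26 in NF and 5.47 ± 0.70 in N (SD, n = 3 each). The change was 2.24 (SE 0.33, 4.74-fold, adjusted p = 0.0180), and 1.84 without N replicate 1.

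The loading factors Mis18a and Oip5 (MIS18 beta), which prime the centromere for new CENP-A, were dim and did not pass the test. Mis18a had 3.58, 3.70 and 4.39 in NF and 2.94, 3.14 and 3.08 in N (means 3.89 ± 0.44 and 3.05 ± 0.10, NF and N, SD), a change of 0.83 (SE 0.22, adjusted p = 0.107). Oip5 had 3.48, 3.38 and 3.65 in NF and 2.54, 3.15 and 2.61 in N (means 3.50 ± 0.13 and 2.77 ± 0.34, NF and N, SD), a change of 0.73 (SE 0.19, adjusted p = 0.0989). In both genes the groups did not overlap.

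The inner kinetochore was split. Of 11 measured CCAN genes 2 rose, 0 fell and 9 did not pass, with a median change of 0.23. Cenpm, a small CCAN subunit, was at 6.49, 6.45 and 6.35 in NF and at 4.52, 5.34 and 4.69 in N (means 6.43 ± 0.07 and 4.85 ± 0.44, NF and N, SD), a change of 1.58 (SE 0.21, 2.99-fold, adjusted p = 0.0144). Cenph, which acts with CENP-I and CENP-K in the network, read 4.09, 3.85 and 4.25 in NF and 3.24, 3.04 and 3.00 in N (means 4.06 ± 0.20 and 3.09 ± 0.13, NF and N, SD), a change of 0.97 (SE 0.15, 1.96-fold, adjusted p = 0.0215). The NF arrays of both genes lay above all N arrays, within a narrow band for Cenpm only. Cenph was also the only member called among the 9 whose mean lay under the dim bound.

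Cenpn, whose protein reads the CENP-A nucleosome, had a mean change as large as that of Cenpm but did not pass. It read 8.00, 7.88 and 7.95 in NF and 5.38, 6.79 and 6.86 in N, a change of 1.60 (SE 0.36, adjusted p = 0.0679). The NF arrays stood close together and the spread lay in N, where replicate 1 was far below the others. Without that replicate the change was 1.12 and Cenpn passed. The CCAN subunits Cenpq (0.37) and Cenpp (0.32) did not overlap between groups and did not pass. Changes were 0.23 for Cenpk, 0.15 for Cenpl, 0.15 for Cenpo and 0.05 for Cenpc1, the gene of the CENP-C scaffold, all with overlapping groups. Without N replicate 1 they were 0.36 for Cenpk, 0.25 for Cenpl, 0.06 for Cenpo and -0.06 for Cenpc1.

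The histone-fold genes Cenpt and Cenpw had overlapping groups and did not pass. Cenpt, which links the inner layer to the NDC80 complex, read 6.32, 6.34 and 6.19 in NF and 6.61, 6.27 and 6.72 in N, a change of -0.25 (adjusted p = 0.562). Its partner Cenpw was dim, at 3.11, 2.46 and 2.68 in NF and 2.73, 2.86 and 2.65 in N (means 2.75 ± 0.33 and 2.75 ± 0.11, NF and N, SD). Its change was 0.0011 (SE 0.18, adjusted p = 0.998), with a 95% interval of -0.42 to 0.42, and -0.0086 without N replicate 1.

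In the outer kinetochore, the KMN network that binds microtubules, 0 of 7 measured genes passed. With limma 4 had an unadjusted p under 0.05, beside 2322 of the 16797 genes, and the median change was 0.41. Dsn1, a subunit of the MIS12 complex, had the largest difference, with 5.98, 5.73 and 5.61 in NF and 4.02, 5.06 and 5.38 in N (means 5.77 ± 0.19 and 4.82 ± 0.71, NF and N, SD). Its change of 0.95 (SE 0.32, adjusted p = 0.227) was 0.55 without N replicate 1. The groups did not overlap, although N replicate 3 came close to NF replicate 3.

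Ndc80, the microtubule-binding subunit, read 5.32, 5.17 and 5.40 in NF and 4.48, 5.07 and 4.86 in N (means 5.29 ± 0.12 and 4.80 ± 0.30, NF and N, SD), a change of 0.49 (SE 0.17, adjusted p = 0.251). Mis12 had overlapping groups, with 5.72, 5.63 and 6.14 in NF and 5.54, 5.82 and 5.98 in N (means 5.83 ± 0.27 and 5.78 ± 0.22, NF and N, SD), and a change of 0.05 (SE 0.18, adjusted p = 0.940, 95% interval -0.37 to 0.47), or -0.07 without N replicate 1. The remaining MIS12 complex genes were Nsl1 (0.45), whose groups did not overlap, and Pmf1 (0.20), whose groups did. Those of the NDC80 complex were Spc24 (0.41, no overlap) and Spc25 (0.16, overlap), the change of which was -0.0017 without N replicate 1.

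Of the 6 spindle checkpoint genes 3 rose and 0 fell, with a median change of 1.16. In all 6 every NF array was above every N array, as in 10.5% of all genes. Bub1, the kinase that docks checkpoint proteins on the kinetochore, had the lowest adjusted p of the list. It read 5.43, 5.12 and 5.29 in NF and 3.62, 3.81 and 3.78 in N, with means of 5.28 ± 0.16 and 3.74 ± 0.10 (NF and N, SD). The change was 1.54 (SE 0.14, 2.92-fold, adjusted p = 0.00562), and 1.49 without N replicate 1.

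Mad2l1, the MAD2 gene whose protein binds and restrains CDC20, read 8.29, 7.78 and 8.24 in NF and 5.93, 6.48 and 6.52 in N (means 8.10 ± 0.28 and 6.31 ± 0.33, NF and N, SD). Its change was 1.79 (SE 0.21, 3.46-fold, adjusted p = 0.00939). Bub1b, the BUBR1 gene and a further part of the inhibitory complex, read 6.66, 6.14 and 6.47 in NF and 3.88, 4.76 and 4.69 in N, a change of 1.98 (SE 0.25, 3.95-fold, adjusted p = 0.0124). In both genes N replicate 1 was the lowest array, and the changes without it were 1.60 for Mad2l1 and 1.70 for Bub1b.

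The kinase gene Ttk (MPS1), which starts checkpoint signalling, and Mad1l1, whose protein carries MAD2 to the kinetochore, did not pass. Their adjusted p lay just above the threshold. Ttk read 4.07, 3.91 and 4.41 in NF and 3.38, 3.49 and 3.17 in N, a change of 0.78 (adjusted p = 0.0560), and Mad1l1 changed by 0.77 (adjusted p = 0.0631). Without N replicate 1 both passed, with changes of 0.80 for Ttk and 0.61 for Mad1l1. Bub3, the partner of BUB1 and BUBR1, read 7.91, 7.94 and 8.07 in NF and 7.23, 7.59 and 7.85 in N (means 7.98 ± 0.09 and 7.56 ± 0.31, NF and N, SD). Its change of 0.42 (SE 0.17, adjusted p = 0.348) did not pass and was 0.26 without N replicate 1, and its NF and N arrays were nearly in contact.

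The RZZ complex brings dynein and the MAD proteins to unattached kinetochores, and 2 of its 3 genes rose. Kntc1 (ROD) read 5.10, 4.98 and 5.20 in NF and 3.76, 3.94 and 3.76 in N (means 5.09 ± 0.11 and 3.82 ± 0.11, NF and N, SD), a change of 1.27 (SE 0.13, 2.42-fold, adjusted p = 0.00716). Zwilch read 5.13, 4.99 and 5.14 in NF and 4.17, 3.73 and 3.75 in N (means 5.09 ± 0.08 and 3.88 ± 0.25, NF and N, SD), a change of 1.21 (SE 0.16, 2.31-fold, adjusted p = 0.0126). The N arrays of Kntc1 were close together, while N replicate 1 of Zwilch was above the other N arrays, and without that replicate the changes were 1.24 for Kntc1 and 1.35 for Zwilch. Zw10, which also acts in membrane traffic outside mitosis, read 5.00, 5.00 and 5.15 in NF and 4.80, 4.99 and 5.28 in N (means 5.05 ± 0.09 and 5.02 ± 0.24, NF and N, SD). Its groups overlapped, with a change of 0.03 (SE 0.15, adjusted p = 0.961, 95% interval -0.33 to 0.38), or -0.08 without N replicate 1.

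In the SKA complex, which holds kinetochores on depolymerizing microtubule ends, 1 of 2 measured genes rose. Ska3 read 5.09, 4.84 and 4.91 in NF and 3.99, 3.85 and 4.04 in N (means 4.95 ± 0.13 and 3.96 ± 0.10, NF and N, SD), a change of 0.99 (SE 0.13, 1.99-fold, adjusted p = 0.0139). Ska2 read 6.98, 6.87 and 7.25 in NF and 6.40, 6.57 and 6.50 in N (means 7.03 ± 0.19 and 6.49 ± 0.09, NF and N, SD), a change of 0.54 (SE 0.14, adjusted p = 0.115). Both genes had all NF arrays above all N arrays.

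Of the 4 genes of the chromosomal passenger complex 3 rose, with a median change of 1.18 over the 4. In all 4 every NF array was above every N array, as in 10.5% of all genes. Birc5 (survivin), which brings the complex to the centromere, read 6.34, 6.40 and 6.30 in NF and 5.45, 5.28 and 5.19 in N (means 6.35 ± 0.05 and 5.31 ± 0.13, NF and N, SD), a change of 1.04 (SE 0.13, 2.06-fold, adjusted p = 0.0111). Aurkb, the kinase, read 7.87, 7.51 and 7.49 in NF and 5.16, 6.30 and 5.95 in N (means 7.63 ± 0.21 and 5.81 ± 0.58, NF and N, SD), a change of 1.82 (SE 0.28, 3.53-fold, adjusted p = 0.0215). Birc5 was tight in both groups, whereas the N arrays of Aurkb were widely spread and its change was 1.50 without N replicate 1.

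Cdca8 (borealin), the further targeting subunit, read 6.85, 6.40 and 6.76 in NF and 5.25, 5.74 and 5.89 in N, a change of 1.04 (SE 0.20, adjusted p = 0.0427). Incenp, the scaffold that activates Aurora B, had 5.88, 6.03 and 5.98 in NF and 3.82, 5.00 and 5.09 in N (means 5.96 ± 0.08 and 4.64 ± 0.71, NF and N, SD). The change of Incenp was 1.32 (SE 0.31, 2.50-fold, adjusted p = 0.0799). Without N replicate 1, which lay far below the other N arrays, it was smaller, at 0.91, and passed the test (adjusted p = 0.00481).

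The remaining 4 genes carry centromere names but differ in role. Cenpe, a kinesin that moves chromosomes to the spindle equator, read 5.30, 4.64 and 4.78 in NF and 3.57, 3.90 and 3.74 in N (means 4.91 ± 0.35 and 3.74 ± 0.17, NF and N, SD), a change of 1.17 (SE 0.19, 2.24-fold, adjusted p = 0.0269). Cenpf, a large protein of the outer kinetochore corona, read 4.94, 4.38 and 4.15 in NF and 3.44, 3.97 and 3.56 in N (means 4.49 ± 0.41 and 3.66 ± 0.27, NF and N, SD), a change of 0.83 (SE 0.23, adjusted p = 0.132). In both, NF replicate 1 was the highest of the arrays and the groups did not overlap.

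Cenpb, which binds a DNA box in satellite repeats, read 5.75, 5.73 and 6.01 in NF and 5.53, 6.02 and 6.17 in N (means 5.83 ± 0.15 and 5.91 ± 0.33, NF and N, SD), with overlapping groups. Its change was -0.08 (SE 0.19, adjusted p = 0.908, 95% interval -0.51 to 0.36), and -0.26 without N replicate 1. Cenpj, a centriole protein in spite of its name, had a change of 0.40 (adjusted p = 0.361).

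**Figure D2:**
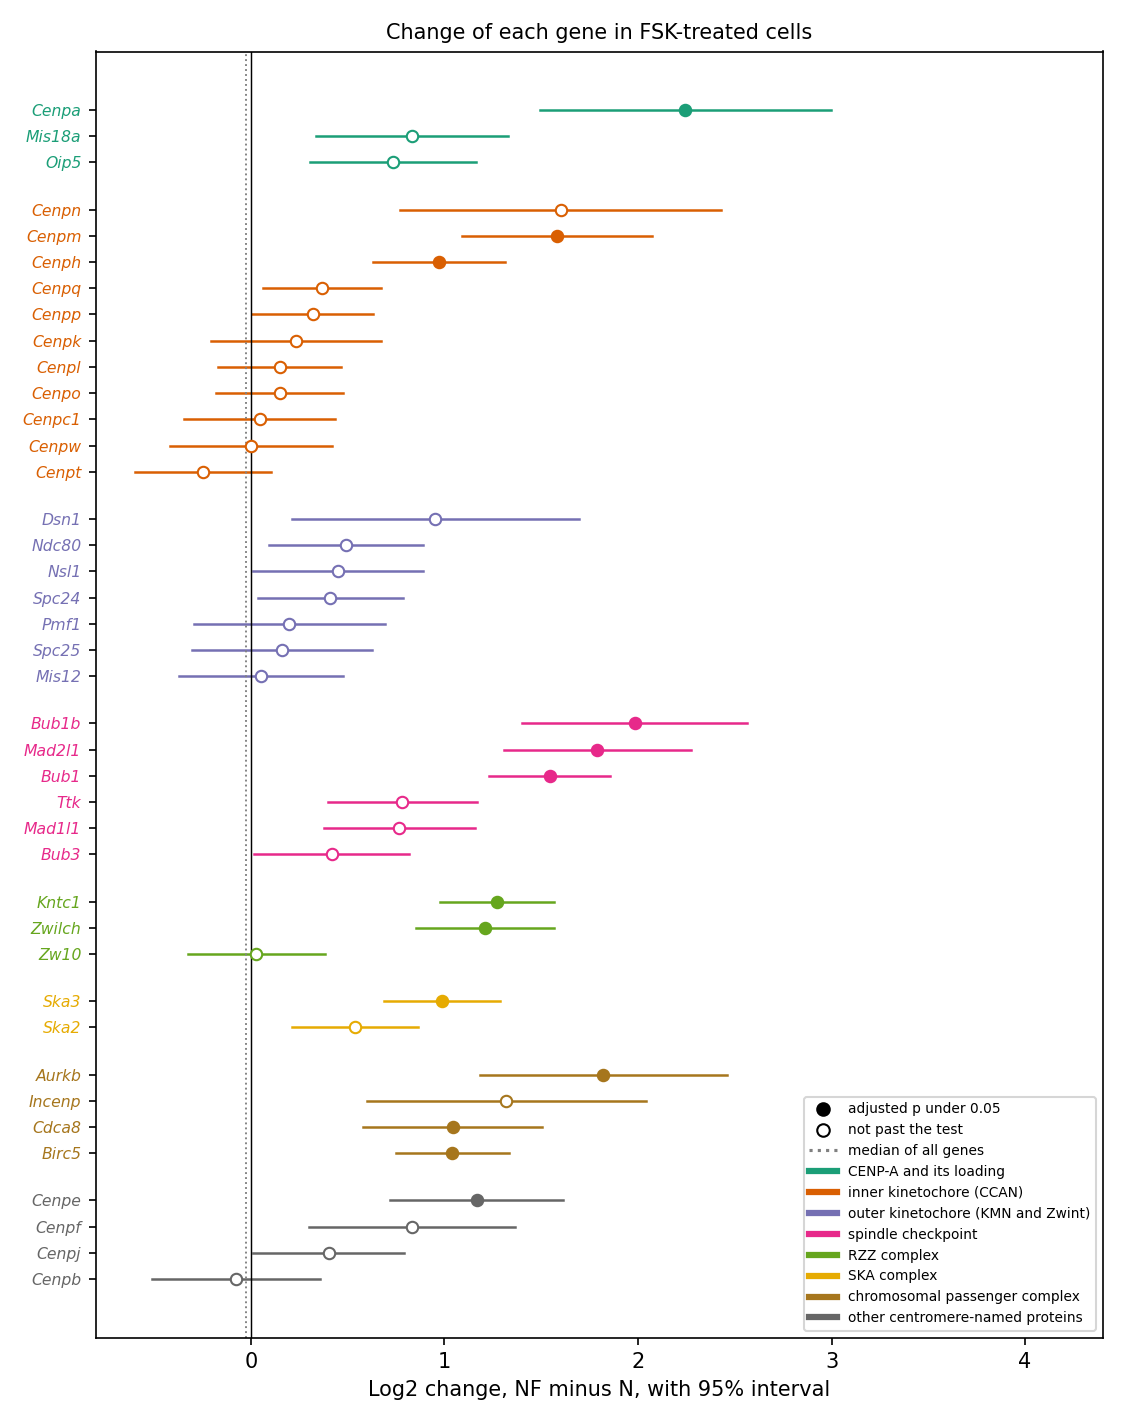
Log2 change, NF minus N (x axis), of each of the 40 genes (y axis, grouped and coloured by role) with its 95% interval, filled for an adjusted p under 0.05 and open otherwise, and a dotted line at the median of all genes. Changes run from -0.25 for Cenpt to 2.24 for Cenpa, and the 13 filled points are absent from the outer kinetochore group.

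The 27 members that did not pass had a median change of 0.40. In 16 of them every NF array was above every N array, as in 10.5% of all genes. By role, the median change was 1.21 for the RZZ complex, 1.18 for the passenger complex, 1.16 for the checkpoint, 0.83 for CENP-A and its loading, 0.76 for the SKA complex, 0.62 for the other centromere-named genes, 0.41 for the outer kinetochore and 0.23 for the CCAN. The differences between roles were not tested. Across arrays, the mean deviation of the 40 members from their own mean level was 0.44, 0.29 and 0.42 in NF replicates 1 to 3 and -0.58, -0.28 and -0.29 in N replicates 1 to 3. NF replicate 2 was the lowest NF array in 22 members.

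Further genes of the same machinery, which are not members, were read from a list of 30 names, 27 of them measured. Of these, 7 rose and 0 fell (at an unadjusted p under 0.05, limma had 17 higher and 0 lower and the methods' t-test 11 higher and 0 lower), with a median change of 0.53 (0.31 without N replicate 1) and 20 changes above 0. Without NF replicate 1 or NF replicate 3 the count was 0, without N replicate 2 it was 3, and without NF replicate 2 it was 4. Cdc20, the anaphase activator that the checkpoint holds back, averaged 7.48 ± 0.17 in NF and 5.94 ± 0.32 in N (SD, n = 3 each), a change of 1.54 (adjusted p = 0.0110). The cohesin guards Sgo2a (1.37, adjusted p = 0.0116) and Sgo1 (0.94, adjusted p = 0.0231) and Kif2c (2.42, adjusted p = 0.0199), a microtubule depolymerase of the centromere, also rose, as did Spag5, Plk1 and Knstrn.

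Genes outside the kinetochore that follow the cell cycle were read the same way. Of 18 measured genes of a G2 and M phase list 15 rose, with a median change of 1.42, among them Top2a (2.15, adjusted p = 0.00562), the topoisomerase that disentangles sister chromatids, Ncaph (1.75, adjusted p = 0.00562), a condensin subunit, Ccna2 (cyclin A, 1.48, adjusted p = 0.00716) and Cdk1 (1.46, adjusted p = 0.00716). Of 20 measured genes of a G1 and S phase list 12 rose, with a median change of 0.92, among them the replicative helicase genes Mcm6 (1.71, adjusted p = 0.0132), Mcm3 (1.47, adjusted p = 0.0166) and Mcm5 (1.37, adjusted p = 0.0185) and Rrm2 (1.49, adjusted p = 0.0231), which makes deoxynucleotides. With only 1 and 2 genes called in all without NF replicate 1 or NF replicate 3, these counts rest on those arrays too. Both lists moved with the kinetochore genes, and their part in the result was not tested. In these bulk samples more cells in a cycle phase and more RNA per cell cannot be told apart.

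**Figure D3:**
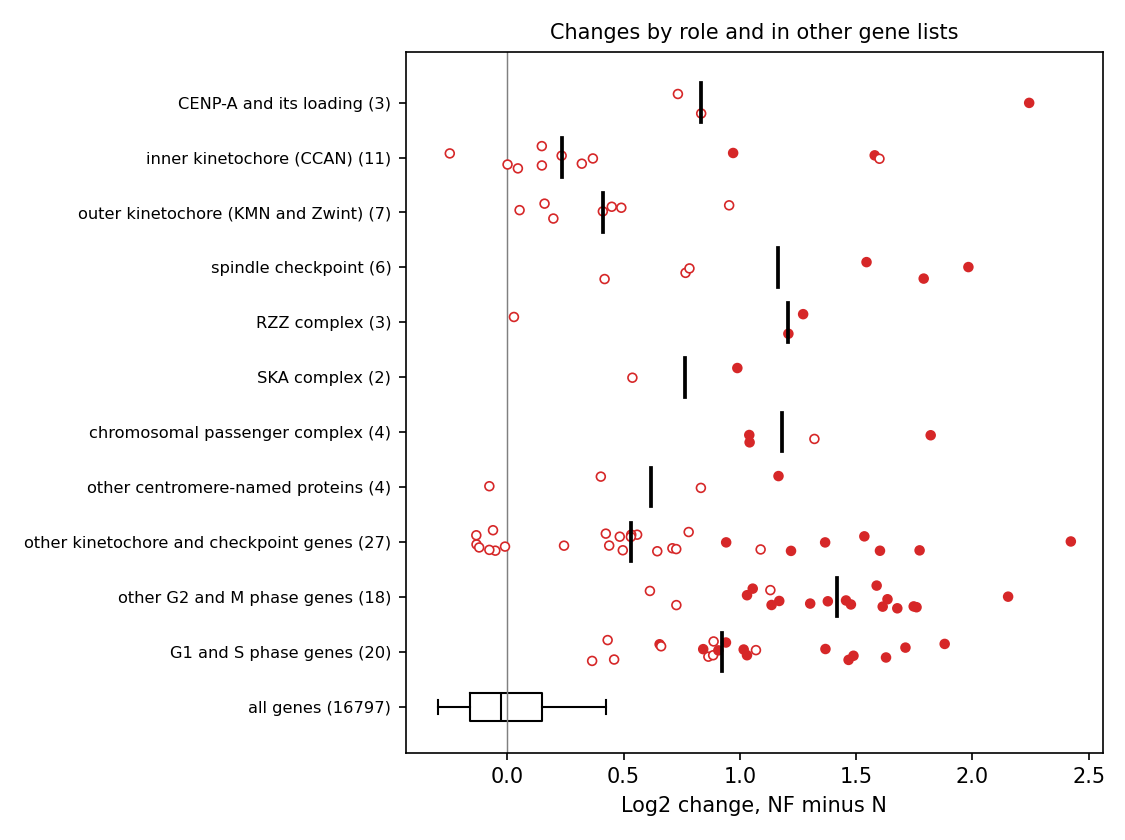
Log2 change, NF minus N (x axis), of each measured gene in the 8 roles and in the 3 other lists, with the number of genes in brackets, filled points for an adjusted p under 0.05, a black bar at each median, and a box plot of all 16797 genes with whiskers at percentiles 10 and 90. The medians of the roles run from 0.23 for the CCAN to 1.21 for the RZZ complex, beside -0.03 for all genes.

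Motifs were counted in RefSeq promoter windows of 300 bases (250 before and 50 after the start), of which 43 belonged to 39 members and 32851 to all genes. Of the 39, 3 members had several windows, which can overlap. CHR was searched as TTTGAA or TTCGAA, the NF-Y box as CCAAT, E2F as TTTGGCGC, TTTCCCGC, TTTCGCGC or TTTGCCGC, and CRE as TGACGTCA, each on both strands. A CHR match was present in 21 member windows (48.8%, against 19.2% of all windows) and an NF-Y box in 28 (65.1%, against 37.4%). E2F letters were found in 5 member windows (11.6%, against 2.26%) and CRE letters in 4 (9.30%, against 1.79%). From 100 bases before the start to the end of the window, the shares were 37.2% against 8.59% for CHR, 51.2% against 23.4% for the NF-Y box, 6.98% against 1.27% for E2F and 9.30% against 1.40% for CRE.

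The motif content of the genes that passed was set beside that of the other tested members, without a test. A CHR was found in 7 of 11 windows of genes that rose and in 13 of 28 windows of genes that did not pass, and an NF-Y box in 8 of 11 and in 17 of 28. E2F letters were found in 1 of 11 windows of genes that rose and in 4 of 28 of the others, and CRE letters in 1 of 11 and in 2 of 28. The Cenpw window held a CRE, an NF-Y box and a CHR although its group means were nearly equal, and the windows of Cenpn and Ttk, which did not pass, held the same elements as those of Bub1. A match is a run of letters and says nothing of binding.

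**Figure D4:**
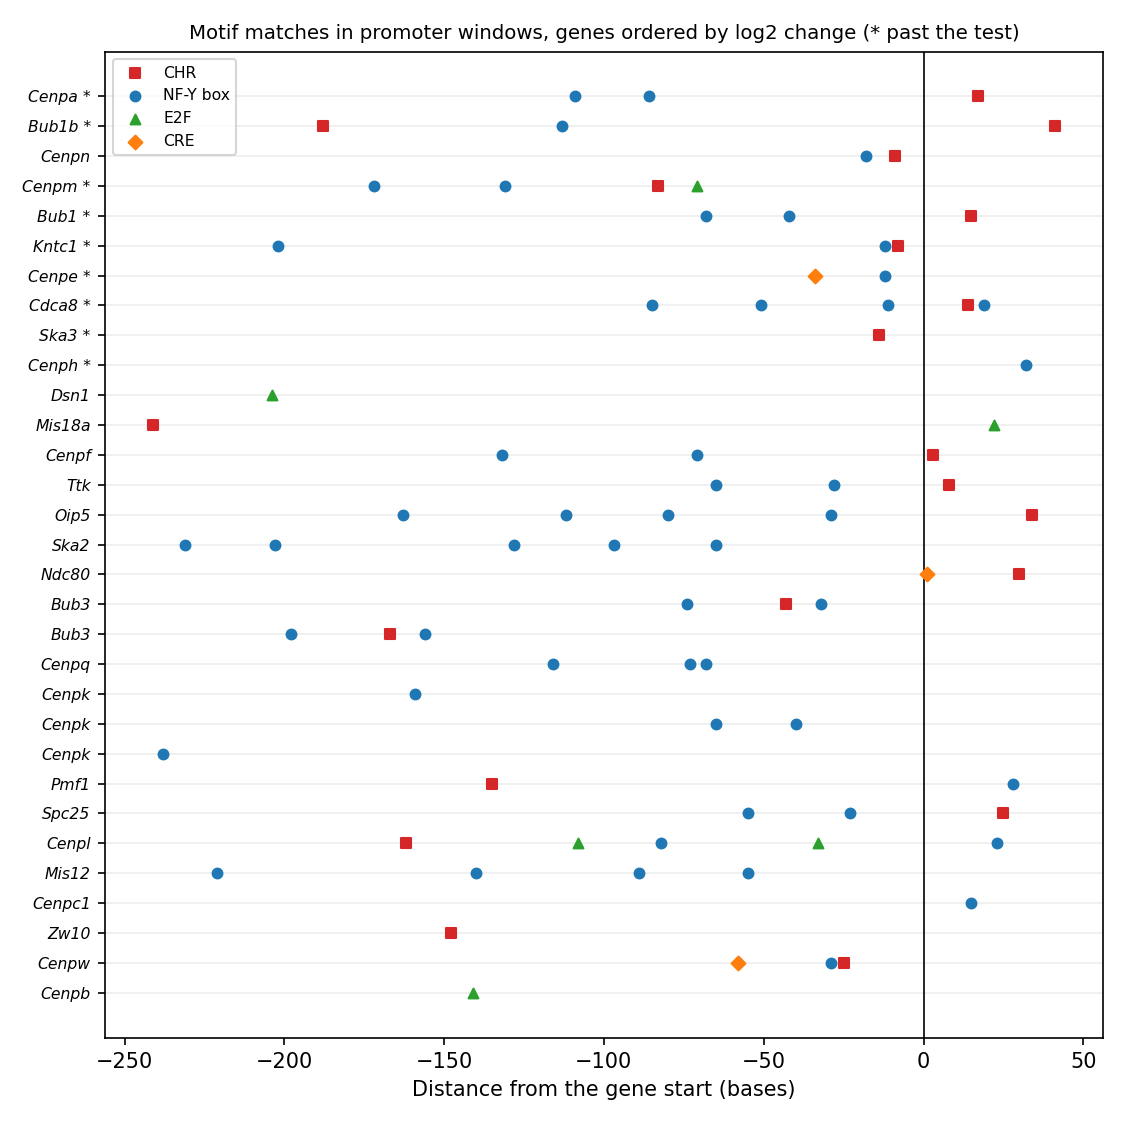
Position of each motif match (x axis, bases from the gene start) in the promoter windows of the measured members that had a match, 1 row per window, ordered from the largest log2 change at the top, with an asterisk for genes past the test. Matches to CHR lie near the start in Cenpa, Bub1 and Kntc1, which passed, and also in Cenpw (-25), Spc25 (25) and Cenpf (3), which did not. Zw10 had a CHR at -148, and the windows of Cenph and Cenpe, which passed, had none.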

How the data were processed

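Total RNA of NIH3T3 cells was measured on 6 Affymetrix gene arrays, 3 NF and 3 N, which the labels call biological replicates. The authors deposited RMA values on a log2 scale, made with the package oligo. The annotation came from ENSEMBL (release not stated), probe sets without an Entrez gene were removed, and which arrays were normalized together is not stated. RMA normalizes between arrays, so changes are relative to the other genes of an array, and the deposited arrays still differ in spread. Arrays carry no read depth, and their number limits the precision.

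Of 22035 probe sets, 18197 were paired with 1 gene symbol, 1260 with several and 2578 were not listed. The 18197 covered 16797 genes, and for the 708 genes with more than 1 probe set the lowest p decided. All 6 columns of values were mapped to a sample. NF and N were compared with limma 3.58.1 under R 4.3.3 (lmFit and eBayes without trend, prior degrees of freedom 4.00), with Benjamini-Hochberg adjustment over all probe sets and a threshold of 0.05, after the script had been tested on simulated data. Tables and figures were made in Python 3.11.15 with pandas 2.3.3 and matplotlib 3.10.9.

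The members and gene lists were chosen with earlier results of these data known. Full values are given for the 2 members with the lowest p and the 1 with the highest p in each role. For up to 4 genes of each other list the change and adjusted p are given, with group means for Cdc20 only. Bub1b, Cenpn, Cenpt, Cdca8, Ttk and Mad1l1 were described in more detail after their values had been seen. Alternatives were a replicate block, quantile normalization, median centring, no dim probe sets, eBayes with trend or robust, the probe set with the highest mean, Student's t-test, leaving out each array, and N replicate 1 with NF replicate 2 left out. Promoter sequences are RefSeq windows of GRCm38.p6.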

Additional observations from a re-analysis of the deposited data

How the results depend on the processing

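Called were 428 genes, 13 members and 7 of the other kinetochore genes. The replicate numbers were not taken as pairs. Deviations of same-numbered arrays correlated at -0.0748, -0.0780 and -0.0736, beside -0.0387 to 0.142 for the other pairs. With so few arrays these values cannot show whether same-numbered arrays shared a culture. With the number as a block the counts were 80, 5 and 1. Student's t-test gave 1, 0 and 0 after adjustment and 1861, 23 and 11 at an unadjusted p under 0.05. Quantile normalization gave 870 genes, and leaving out N replicate 1 with NF replicate 2 gave 1038. Leaving out 1 array gave 1 to 922 genes, 0 to 17 members and 0 to 9 of the other genes. With 3 arrays a group, calls near the threshold depended on single arrays. Median centring, dim probe sets left out (15 of 31 members called), eBayes with trend (15) or robust (13) and the probe set with the highest mean kept the member count within 1.5 times. The promoter shares kept their direction in the shorter window. Of the genes chosen by rank of p in each role, 4 that did not pass changed sign. Outside that choice, Cenpc1 (-0.06) and Spc25 (-0.0017) were below 0 without N replicate 1. Cenpw was -0.0358 after centring and -0.177 to 0.146 with 1 array left out. Mis12 was -0.0764 after quantile normalization and -0.104 to 0.153 with 1 array left out. Zw10 was -0.0958 after quantile normalization, -0.0083 after centring, -0.0549 without N replicate 1 and NF replicate 2, and -0.0820 to 0.158 with 1 array left out. Cenpb was -0.265 to 0.0547 with 1 array left out. The causes were not tested.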
